A study of Rattus norvegicus with 12 samples.

Results

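OC1 cells, labelled as a cochlear sensory epithelial line, were transfected with siRNA and profiled by strand-specific sequencing of polyadenylated RNA. The 12 libraries form 3 groups of 4, which received a control siRNA, siRNA 1423 or siRNA 1928, and each group holds replicates A to D. Both numbered siRNAs are directed at Bcl-2, and their groups are labelled as Bcl-2 knockdown, while the control group is labelled wild type. The labels give the organism as rat. HEI-OC1, a cell line with a similar name, comes from mouse, and whether OC1 is that line was not settled here, so a gene below means the rat gene ID to which reads were assigned. All cells shared 1 culture medium and 1 lipid transfection procedure. The labels call the treatment a plasmid transfection in 1 field and name siRNA in the others, and siRNA is followed here. No label says that the 4 replicates of a group were separate cultures, so their spread may be technical.

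The genes described here are those that were higher in cells given siRNA 1423 and stayed near the control level in cells given siRNA 1928. They number 83 of the 23978 genes in the table. Levels are given as CPM, the count of a gene scaled to 1000000 counts in its library. The genes were chosen by measured levels. A gene was taken when its mean over the 12 libraries was 10 CPM or more, the log2 ratio of mean CPM between siRNA 1423 and control was 0.25 or more, the same ratio for siRNA 1928 lay between -0.15 and 0.15, and every library of siRNA 1423 lay above every control library. Because these values chose the genes, the differences between the siRNA groups below are a description. Counts of genes called by a fit across the whole table are given for these differences only to describe what was selected.

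BCL-2 is a membrane protein of the mitochondrial surface and the endoplasmic reticulum that holds the pore-forming proteins BAX and BAK in check and so opposes apoptosis. An siRNA is loaded into an Argonaute protein and guides it to cut mRNAs of matching sequence. Several siRNAs against the same mRNA share their target and differ in sequence. The rule sorted genes by their ratio to control with each siRNA, and why these ratios differed was not tested. The deposited table names genes by Ensembl ID, and 0 of the 23978 IDs were found in the RefSeq gene table at hand, so no symbol, function or promoter is given for the 83 genes. The level of Bcl2 and the markers of the labelled cell type were not analysed here for the same reason.

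Library totals ran from 15671546 to 23247593 expected counts. Of the 9567 genes averaging at least 10 CPM, 293 had a log2 ratio of 0.25 or more with siRNA 1423, and in 256 of these all 4 libraries lay above all 4 control libraries, an order found in 12.9% of the 9567. In 157 of the 256 the ratio for siRNA 1928 exceeded 0.15, in 16 it was under -0.15, and the 83 lay between. In another 11 genes the levels and ratios qualified but the libraries of siRNA 1423 and control overlapped.

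**Figure D1:**
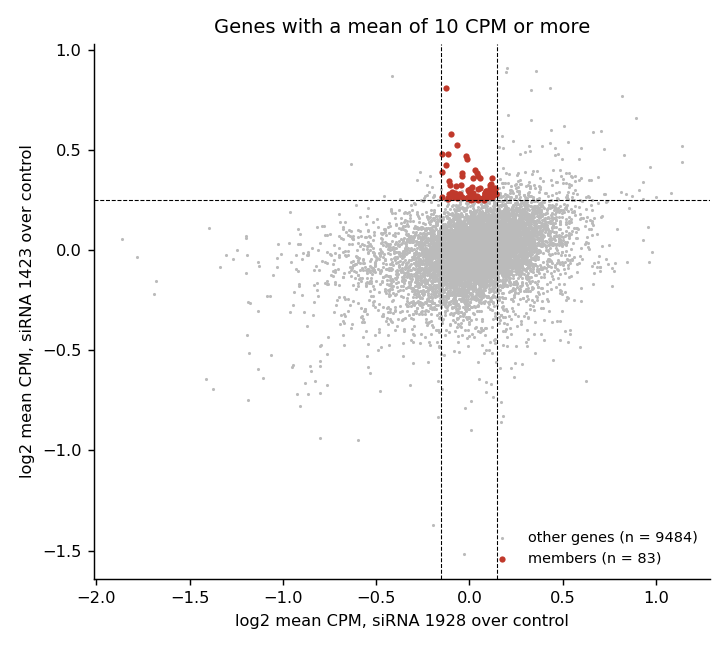
Each point is 1 gene averaging at least 10 CPM, placed by its log2 ratio of mean CPM to control with siRNA 1928 (horizontal axis) and siRNA 1423 (vertical axis); dashed lines are the limits of the rule at 0.25, -0.15 and 0.15. The 83 chosen genes (red) crowd just above the lower limit, and 3 of them lie above 0.5.

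The increases with siRNA 1423 were small. The median log2 ratio to control was 0.29, and the ratio lay between 0.26 (10th percentile) and 0.39 (90th percentile) for most genes. In all, 31 of the 83 genes reached 0.3, 8 reached 0.4 and 3 reached 0.5. The genes at the limit show that it marks no gap. The 3 genes just inside it had ratios of 0.2504, 0.2510 and 0.2516, and the 3 just outside had 0.2488, 0.2485 and 0.2478. With siRNA 1928 the ratios had a median of 0.0052, and 45 genes lay above 0 and 38 below it. At the upper limit for siRNA 1928 the nearest genes inside lay at 0.144, 0.144 and 0.138, and those outside at 0.151, 0.156 and 0.156. At the lower limit the nearest inside lay at -0.148, -0.147 and -0.147, and those outside at -0.155, -0.190 and -0.193. The abundance limit fell between 10.2, 10.3 and 10.5 CPM inside and 9.96, 9.95 and 9.83 CPM outside.

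The largest increase was in ENSRNOG00000022218. Its control libraries A to D held 10.2, 11.05, 13.9 and 10.8 CPM. With siRNA 1423 the level was 19.9, 18.7, 22.2 and 19.9 CPM, and with siRNA 1928 it was 11.04, 8.30, 10.8 and 12.05 CPM. Every library of siRNA 1423 lay above all 8 others, while siRNA 1928 and control overlapped. The means were 11.5 ± 1.66 CPM for control, 20.2 ± 1.48 CPM for siRNA 1423 and 10.5 ± 1.59 CPM for siRNA 1928 (SD, n = 4 each). It held 130 to 489 expected counts per library and had the widest standard error among the 83 genes, with a fitted log2 fold change of 0.81 (SE 0.0999) for siRNA 1423 against control. The fitted change for siRNA 1928 against control was -0.18 (SE 0.108).

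ENSRNOG00000017191 had the second largest increase. The control libraries A to D held 41.4, 40.2, 38.99 and 37.2 CPM. The libraries of siRNA 1423 held 60.8, 54.3, 62.7 and 57.7 CPM, and those of siRNA 1928 held 36.5, 34.2, 36.8 and 39.9 CPM. Here too siRNA 1423 stood above all other libraries, and siRNA 1928 overlapped the control range at its upper end. Group means were 39.4 ± 1.79 CPM for control, 58.9 ± 3.68 CPM for siRNA 1423 and 36.8 ± 2.36 CPM for siRNA 1928 (SD, n = 4 each). Its fitted log2 fold changes were 0.59 (SE 0.0521) for siRNA 1423 and -0.15 (SE 0.0544) for siRNA 1928. In the fit described below it was among the 18 genes called lower with siRNA 1928 than in control (adjusted p = 0.0250, edgeR's quasi-likelihood test). The rule limited this ratio, so the call is a description.

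The gene with the third largest increase held different levels in the replicate letters. Its control libraries A to D held 163, 161, 136 and 129 CPM. The libraries of siRNA 1423 held 219, 232, 196 and 199 CPM, and those of siRNA 1928 held 141, 152, 135 and 134 CPM. In each of the 3 groups replicates A and B were both above replicates C and D. That siRNA 1423 was above control within every letter was fixed by the rule. The means were 147 ± 17.6 CPM for control, 212 ± 16.8 CPM for siRNA 1423 and 141 ± 7.98 CPM for siRNA 1928 (SD, n = 4 each).

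**Figure D2:**
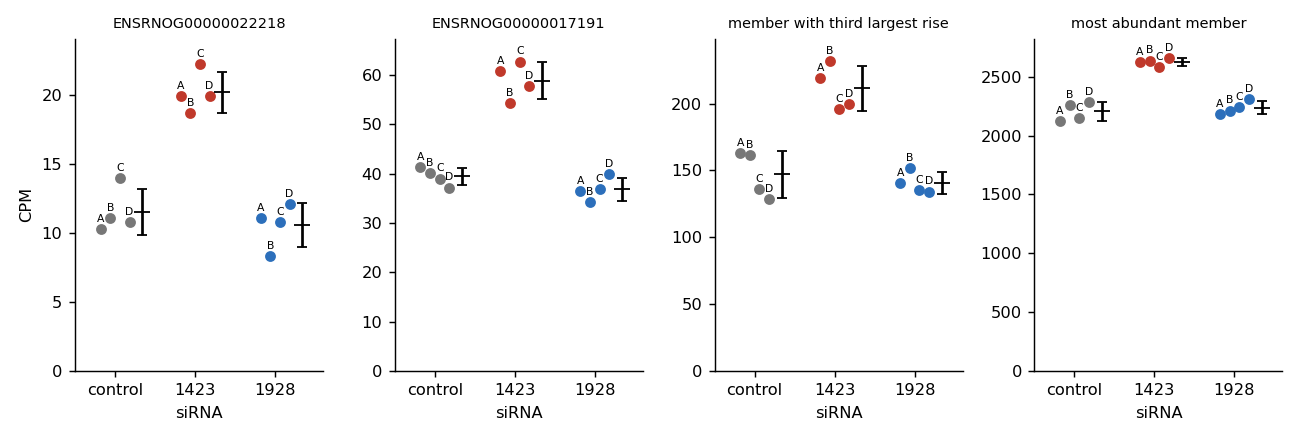
CPM (vertical axis, from 0) in each library of the control, siRNA 1423 and siRNA 1928 groups (horizontal axis) for the 3 genes with the largest increase and the most abundant of the 83; letters name the replicates, and black bars give the mean and SD of 4 libraries. In all 4 panels the siRNA 1423 libraries sit above the other 8, and in the third panel replicates A and B sit above C and D in every group.

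The 83 genes covered a wide range of abundance. Their mean levels ran from 10.2 to 2356 CPM with a median of 40.6 CPM, while the 9567 genes above the same floor had a median of 49.8 CPM. There were 19 genes between 10 and 20 CPM (22.9% of the 83, against 17.3% of the 9567), 25 between 20 and 50 CPM (30.1% against 32.8%), 20 between 50 and 100 CPM (24.1% against 24.5%), and 19 above 100 CPM. The most abundant gene held 2124, 2259, 2150 and 2287 CPM in control libraries A to D, 2626, 2637, 2581 and 2661 CPM with siRNA 1423, and 2183, 2211, 2244 and 2307 CPM with siRNA 1928. Its ratio of 0.25 lay close to the limit, yet the lowest library of siRNA 1423 was well above the highest of the other 2 groups. The next in abundance held 713, 739, 688 and 707 CPM in the control group, 969, 975, 954 and 928 CPM with siRNA 1423, and 654, 647, 647 and 659 CPM with siRNA 1928. This gene combined a ratio of 0.43 with siRNA 1423 with one of -0.13 with siRNA 1928, and its 3 groups did not overlap at all.

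Together the 83 genes made up 0.858 ± 0.0131% of the counts in control libraries, 1.06 ± 0.0124% under siRNA 1423 and 0.858 ± 0.00515% under siRNA 1928 (SD, n = 4 each). Set against the mean of the control libraries gene by gene, the median log2 ratio was 0.30, 0.31, 0.28 and 0.28 in libraries A to D of siRNA 1423. In those of siRNA 1928 it was 0.010, 0.014, -0.011 and -0.0045, and in the control libraries it was 0.029, 0.0050, -0.018 and -0.026. That every library of siRNA 1423 lay above the controls was required of each gene, so these medians describe only how close the 4 libraries were to each other. In the control group replicate A was the highest library for 36 of the 83 genes, against 18, 14 and 15 for B, C and D. Within siRNA 1423 the lowest library was D for 28 genes, C for 22, A for 18 and B for 15. The distance between the lowest library of siRNA 1423 and the highest control library had a median of 0.15 on the log2 scale and went down to 0.0014.

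**Figure D3:**
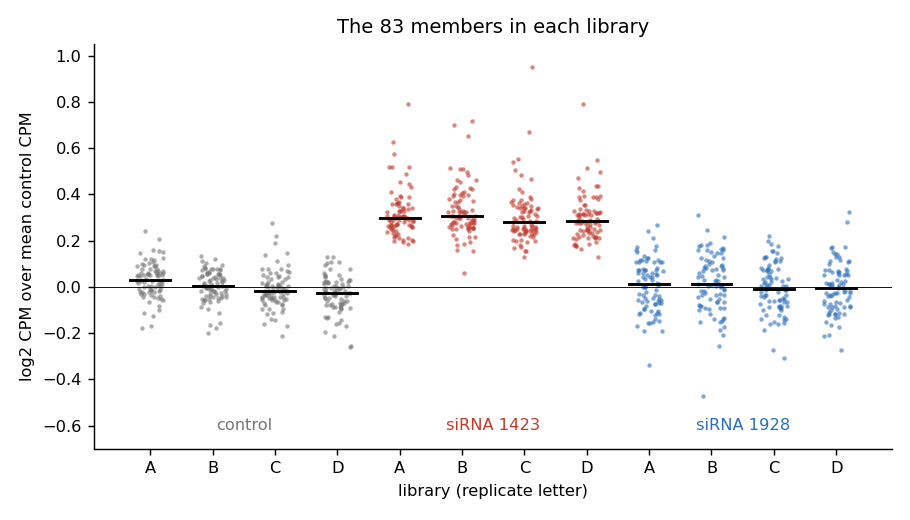
Log2 ratio of CPM to the mean control CPM of the same gene (vertical axis) for the 83 genes (points) in each of the 12 libraries (horizontal axis, by group and replicate letter); black lines are medians. The medians are 0.28 to 0.31 in the siRNA 1423 libraries and within 0.03 of 0 in the other 8.

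All libraries of siRNA 1423 lay above all libraries of siRNA 1928 in 74 of the 83 genes, an order seen in 17.9% of all genes with 10 CPM or more. The limits on both ratios nearly fix this order, so nothing is read from it. Between siRNA 1928 and control the libraries overlapped in 73 genes. In 4 genes every library of siRNA 1928 was above every control library (29.6% of all genes at this abundance), and in 6 it was below (18.2%), again within limits that the rule set.

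The same contrasts were also fitted across all 12731 genes with enough counts. The fit scales libraries by trimmed means of M values (TMM) and calls a gene changed at a Benjamini-Hochberg adjusted p under 0.05 in edgeR's quasi-likelihood test. With siRNA 1423 against control all 83 genes were called higher, where 11.3% of all tested genes were, and the fitted log2 fold changes had a median of 0.29 against -0.0012 over all tested genes. Their standard errors ran from 0.0265 to 0.0999. Between the siRNAs 82 of the 83 were called lower with siRNA 1928 than with siRNA 1423 (23% of all tested genes), with log2 differences from -0.99 to -0.19 and a median of -0.35. These contrasts were used by the rule, and the counts describe what it selected.

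The rule also limited the ratio for siRNA 1928, so the counts in this paragraph again describe the selection. The size of that ratio depended on the scaling. TMM factors averaged 1.03 in the siRNA 1928 group and 0.988 in the control group, which lowers a ratio to control by 0.057 on the log2 scale relative to plain CPM. In the TMM fit the 83 genes had a median log2 fold change of -0.053 for siRNA 1928 against control, against 0.0034 over all tested genes. Of the 83, 18 were called lower, by -0.21 to -0.099, and 0 higher, where 23.3% and 21.8% of all tested genes were called lower and higher. At an unadjusted p under 0.05 the fit counted 26 of the 83 in either direction, 3 of them higher, where 51.7% of all tested genes were counted and 25.3% as higher. DESeq2 and limma voom each called 17 lower and 0 higher. When only the library size was used for scaling, the median was 0.0038 against 0.060 over all tested genes, and 6 were called lower and 5 higher, where 16.8% and 30.4% of all tested genes were. Under both scalings the median of the 83 genes lay below that of all tested genes. The rule held their plain CPM ratio in a window around 0. Genes averaging at least 10 CPM had a median ratio of 0.045, so nothing is read from this order. Replicates A and B alone gave 16 lower and 0 higher (18.7% and 16.2% of all tested genes), and C and D alone gave 8 lower and 1 higher (19.7% and 17.5%). When the rule itself was applied to TMM-scaled CPM it chose 102 genes, of which 66 were among the 83.

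The replicate letters allowed a comparison that the rule did not use, since each group holds all 4 letters. The division into A and B against C and D was itself known from earlier results of these same data. The calls and p-values for it are therefore a description and give no separate support for the division. A term for replicates C and D against A and B, fitted beside the group means, called 9 of the 83 genes, 2 higher and 7 lower in C and D (edgeR's quasi-likelihood test). Over all tested genes 8.76% were called, 3.58% higher and 5.18% lower, and 10.6% of those with 10 CPM or more, so the 9 genes were near the background share. Among the called genes the largest difference was the decrease in the gene with the third largest response to siRNA 1423, at -0.19 (SE 0.0279, adjusted p = 3.89e-05). ENSRNOG00000022218 had a difference of similar size in the other direction, 0.19 (SE 0.0705), which did not pass the test (adjusted p = 0.0875). A gene with a mean of 307 CPM followed in strength of the call, at -0.10 (SE 0.0200, adjusted p = 0.00111). It held 287, 301, 274 and 278 CPM in control libraries A to D, 367, 358, 337 and 338 CPM with siRNA 1423, and 299, 299, 274 and 268 CPM with siRNA 1928, so that A and B were higher in each group. The higher calls were at 0.099 (SE 0.0297, adjusted p = 0.0332) and, for another gene, 0.11 (SE 0.0364, adjusted p = 0.0453). The total of 9 fell to 4, 5 and 3 without replicate A, B or D of siRNA 1423. It fell to 4 without replicate B of siRNA 1928. Over all tested genes these 4 fits called 385, 345, 306 and 314 higher and 534, 585, 507 and 512 lower. The full fit called 456 higher and 659 lower. With library size alone all 9 calls were lower in C and D, where 750 of all tested genes were called lower and 336 higher. DESeq2 called 6 lower and 0 higher (528 and 359 of all tested genes). For limma voom the calls were 7 lower and 1 higher (653 and 469 of all tested genes). The requirement that siRNA 1423 and control do not overlap favors genes with little spread within a group, which bears on this count.

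Within replicates A and B alone the log2 ratio to control with siRNA 1423 ran from 0.14 to 0.86 over the 83 genes, and within C and D from 0.21 to 0.77. Ratios above 0 in both parts follow for all 83 from the requirement that the libraries of siRNA 1423 and control do not overlap. The medians were alike at 0.29 in each part, and the ratio was larger within C and D for 49 genes. The libraries of both parts chose the genes, so the medians are a description and give no separate support. The limits were met less evenly. A ratio of 0.25 or more was reached in both parts by 52 genes. The ratio for siRNA 1928 stayed within 0.15 of 0 in both parts for 57. These counts describe the selected genes, and the share over all genes was not computed. For siRNA 1928 the ratios ran from -0.30 to 0.18 within A and B and from -0.31 to 0.18 within C and D, so single genes departed further from control in 1 part than the limits allow over both.

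**Figure D4:**
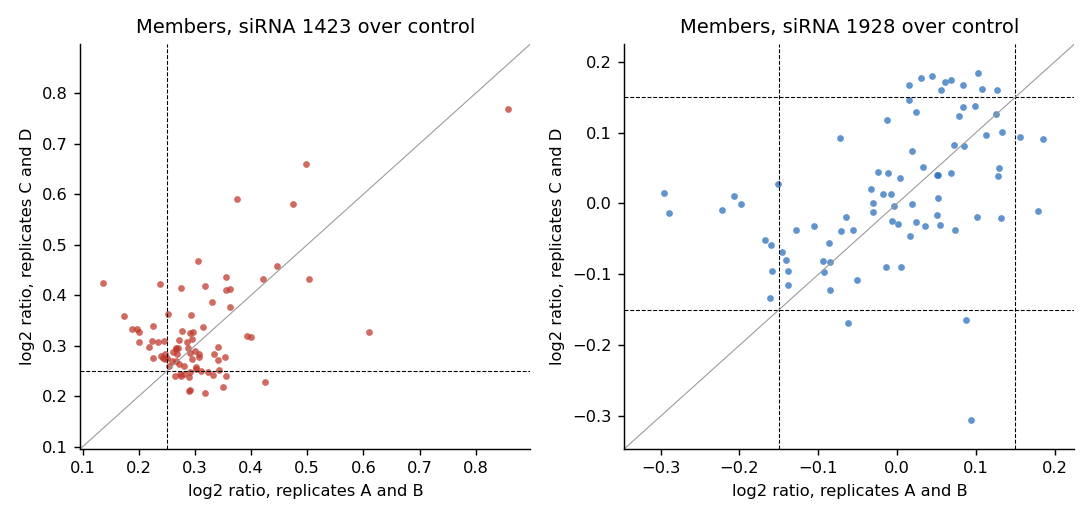
Log2 ratio of mean CPM to control for each of the 83 genes within replicates A and B (horizontal axes) and within C and D (vertical axes), for siRNA 1423 (left, red) and siRNA 1928 (right, blue); grey lines mark equality and dashed lines the limits of the rule. On the left 52 points lie at or above 0.25 on both axes; that all lie above 0 is fixed by the rule.

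The spread within groups was close to that of genes at large, but for control and siRNA 1423 the rule bears on it. The demand that these groups do not overlap favors genes with little spread within them, so the values are a description. The median coefficient of variation over 4 libraries was 4.77% for control, 4.31% for siRNA 1423 and 4.09% for siRNA 1928, and the medians over all 9567 genes were 4.44%, 4.25% and 4.17%. Counting error alone would give the 83 genes medians of 3.61%, 3.41% and 3.72%. After the group means were removed from log2(CPM + 0.5), pairs of the 83 genes had a median correlation of 0.038 over the 12 libraries, with 10th and 90th percentiles of -0.45 and 0.53. All pairs of the 9567 genes had a median of -0.00043, with percentiles of -0.49 and 0.50. The pairs share libraries and depth, and the values are a description.

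The decimals of the expected counts were a feature that the rule did not use. An expected count departs from a whole number when reads are divided between features. Counts were whole to within 1e-06 in all 12 libraries for 9 of the 83 genes (10.8%) and for 331 of the 9567 (3.46%). Scarce genes had such counts more often, and the 9 were all under 50 CPM. Between 10 and 20 CPM they were 5 of 19 against 12.7% of all genes, and between 20 and 50 CPM 4 of 25 against 3.66%. The other 74 genes had a count that was not whole in at least 1 library, and how reads were divided there is not given in the sources used here.

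The list itself depended on single libraries. Leaving out 1 library at a time and applying the rule to the remaining 11 gave 79 to 99 genes, and 34 of the 83 were chosen in all 12 of these lists. Without control replicate C 61 of the 83 were kept, and without siRNA 1423 replicate C 80 were. Leaving out a library of siRNA 1928 kept 78 or 79. Replicates A and B alone chose 100 genes, 54 of them among the 83, and replicates C and D alone chose 108, 57 of them among the 83. With 2 libraries in a group the demand for separation is easier to meet.

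**Figure D5:**
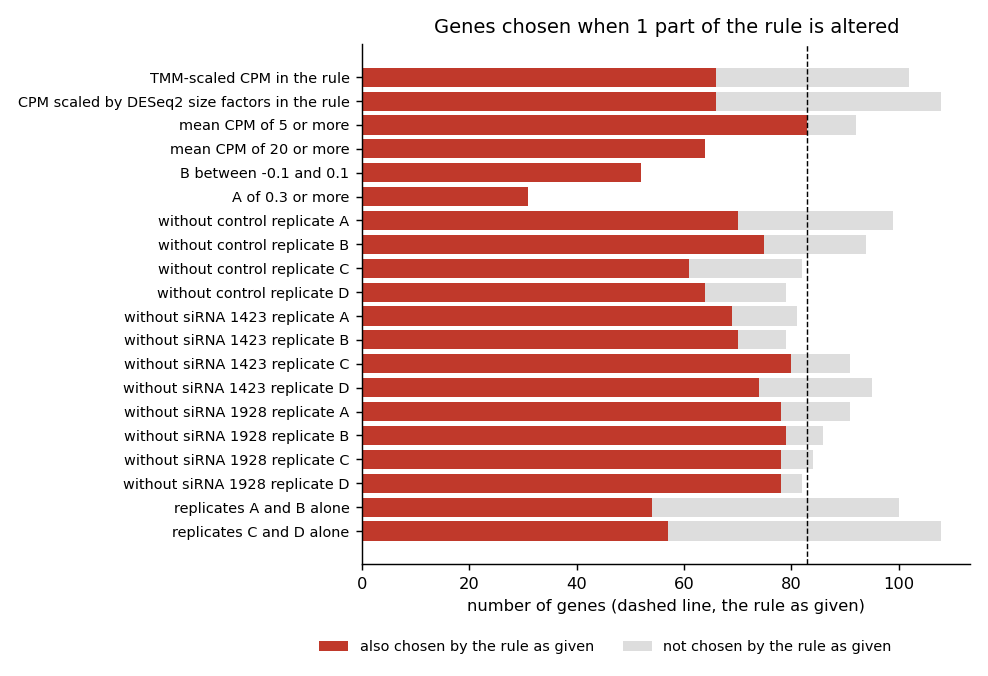
Number of genes chosen (horizontal axis, from 0) when 1 part of the rule, the scaling or the set of libraries is altered (vertical axis); red parts are genes among the 83, grey parts are others, and the dashed line marks 83. Red parts run from 31 with the stricter limit on siRNA 1423 to 83 with the lower abundance floor.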

How the data were processed

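Messenger RNA was sequenced in 12 libraries, and groups were taken from the siRNA code in the titles. The authors deposited a table of expected counts, which are estimates of reads, by Ensembl gene ID. The unit was read from the values, of which 71.3% were whole to within 1e-06. Per the submitters' processing notes, bcl2fastq 2.20, fastp 0.21.0, DESeq2 1.24.0 and build mRatBN7.2 were used, with aligner, counting program and annotation not given in the sources used here.

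The genes were chosen on plain CPM. For the fits, counts were rounded and filtered with filterByExpr (minimum count 10, minimum total 15), which left 12731 genes. They were scaled by TMM and tested with edgeR 4.0.16 (R 4.3.3) in 1 model of all 12 libraries. P-values were adjusted over all tested genes. DESeq2 1.42.0 and limma voom (limma 3.58.1), other scalings, no filter, a replicate block, left-out libraries and altered limits were alternatives. Standard errors were derived from the F statistic. The fits were tested on simulated data. Figures used matplotlib 3.10.9.

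The choice of genes, the division of the replicate letters and the lists drawn up for this work were made with earlier results of these data known. The rule for naming genes asked for symbols. As 0 IDs matched the reference table (assembly GRCr8), it was applied to IDs, only the 2 with the largest ratio for siRNA 1423 are printed, and the lists of pathway and marker genes were not used here. Other genes are described by their rank in response or abundance.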

Additional observations from a re-analysis of the deposited data

How the results depend on the processing

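The call of all 83 genes with siRNA 1423 against control stayed within 65 to 83 over 21 alternatives. The count called lower between the siRNAs stayed within 75 to 82. Replicates A and B alone gave the lowest counts, where 748 of 12732 tested genes were called higher with siRNA 1423. Between the siRNAs 2296 were called lower in that fit. The rule used these contrasts, so these counts describe the selection. The rule chose 52 genes with siRNA 1928 held within 0.1 of control and 31 with a limit of 0.3 on siRNA 1423, and 79 to 99 without 1 library. Genes of the 83 called with siRNA 1928 against control numbered 18, and 13 to 21 without 1 library. With library size alone they numbered 11, and with replicates C and D alone 9. Over all tested genes the main fit called 2780 higher and 2972 lower. Library size alone called 3865 and 2138, and replicates C and D alone 2247 and 2529. Without 1 library 2514 to 2802 were called higher and 2687 to 2970 lower. The median log2 fold change of the 83 genes for siRNA 1928 against control was -0.053. It became 0.0038 with library size alone and lay between -0.059 and -0.039 without 1 library. TMM factors lower this ratio by 0.057 on the log2 scale relative to plain CPM. The 9 genes called between C and D and A and B became 5 without the siRNA 1928 libraries and 3 to 12 without 1 library. Over all tested genes the fit without the siRNA 1928 libraries called 292 higher and 465 lower of 12474. The 3 came without replicate D of siRNA 1423, where 306 and 507 of 12808 were called. The 12 came without replicate A of siRNA 1928, where 519 and 709 of 12771 were called. Fits that leave out libraries hold fewer samples, and the stricter limits choose among the same 83 genes. What else moved the counts was not tested.

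The library numbers in the titles run on from letter A to letter D, and the letters are not stated to pair samples. Across groups, the 12 correlations of same-lettered libraries ran from -0.019 to 0.27, 9 of them over 0.1. Those of A with B or C with D ran from 0.050 to 0.37, and the others from -0.37 to 0.030. Only 3 of 12 libraries correlated best with their own letter. With the replicate block the calls were 83 for siRNA 1423, 22 for siRNA 1928 and 82 between the siRNAs. The medians were 0.29 and -0.050. Over all 12731 tested genes the block called 1692 higher with siRNA 1423 and 3100 lower between the siRNAs. With siRNA 1928 against control it called 2992 higher and 3182 lower. The block was not run for the comparison of letters. Standard errors of the 83 genes ran from 0.0265 to 0.0999 for siRNA 1423 against control.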

Other observations

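The same rule turned around, with a log2 ratio of -0.25 or less for siRNA 1423 and every one of its libraries under every control library, gave 170 genes. That is more than the 83 that were higher, and the difference between these counts was not tested. Another 27 genes met every limit for a higher level with siRNA 1423 alone except the abundance floor.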
